A study of Homo sapiens with 2 samples.

Results

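Ribosomal protein genes were compared between drug-selected and parental cells of A2058, an established line of human melanoma. The drug-selected cells came from parental A2058 cells by repeated rounds of carmustine, an agent that alkylates and crosslinks DNA, each followed by drug removal and regrowth, with the dose raised in steps. The labels give 100 uM and 6 months for this selection, which the parental cells did not receive. The cells of both groups were grown in the same serum-supplemented medium. RNA of each group was hybridised to 1 Illumina bead array of 47323 probes. No difference below therefore has a replicate check, precision is limited by there being 1 array a group, and no p-value is given. Cells that survive such a selection are a subpopulation of the line, and the number of independent selections behind the RNA was not stated by the sources read.

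The members were chosen by gene symbol alone, as the genes named RPL or RPS with a number (cytosolic ribosome) and those named MRPL or MRPS with a number (mitochondrial ribosome). They were 148 genes with 229 probes, 73 cytosolic genes with 120 probes and 75 mitochondrial genes with 109 probes, out of 20046 genes with 30113 probes that have 1 gene symbol. A gene was detected when any of its probes had a detection p-value below 0.05 on either array. By this measure 71 cytosolic and 75 mitochondrial genes were detected, against 12832 of all genes.

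The cytosolic ribosome reads messenger RNA in the cytoplasm, with a small subunit (RPS proteins) that decodes and a large subunit (RPL proteins) that joins amino acids. Its proteins are made in nearly equal numbers, and many of their messenger RNAs begin with a run of pyrimidines, the 5′ terminal oligopyrimidine or TOP tract, through which mTOR signalling and LARP1 control their translation. The mitochondrial ribosome is assembled from nuclear-encoded MRPL and MRPS proteins and translates the few messages of the mitochondrial genome, all of which code for subunits of the respiratory chain and the ATP synthase.

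The first bases of the transcripts are shown because they tell whether a TOP tract begins at the listed start. Each window holds the last 15 bases before the start listed by RefSeq (GRCh38.p14) and the first 15 of the transcript, 5′ to 3′ on the coding strand. Capitals mark the pyrimidine tract, a C at the start followed by at least 4 bases that are C or T. A window without capitals has none at that start.
RPL34: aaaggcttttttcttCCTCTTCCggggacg
RPL29: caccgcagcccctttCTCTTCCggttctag
RPS21: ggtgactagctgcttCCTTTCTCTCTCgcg
RPL13A: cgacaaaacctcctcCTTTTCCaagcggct
RPL22L1: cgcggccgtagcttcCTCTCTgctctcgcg
RPL7L1: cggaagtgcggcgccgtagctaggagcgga
RPL26L1: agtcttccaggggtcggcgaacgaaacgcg
RPL10L: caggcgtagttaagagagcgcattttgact
MRPS2: cgcgtgggccgggttCCTCTgcgggtgggt
MRPS26: cggcaccgcggccgcagtgaggagactcgg

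The windows of the first 4 genes lie at chr4:108620561-108620590 (RPL34, plus strand), chr3:51995881-51995910 (RPL29, minus strand), chr20:62387088-62387117 (RPS21, plus strand) and chr19:49487593-49487622 (RPL13A, plus strand). Those of the paralogues lie at chr3:170870181-170870210 (RPL22L1, minus strand), chr6:42879601-42879630 (RPL7L1, plus strand), chr5:172958714-172958743 (RPL26L1, plus strand) and chr14:46651767-46651796 (RPL10L, minus strand). The mitochondrial examples lie at chr9:135499950-135499979 (MRPS2, plus strand) and chr20:3046037-3046066 (MRPS26, plus strand). All 4 cytosolic genes that passed 2-fold had a tract of 7 to 12 pyrimidines, as did most of their class, since 42 of the 61 cytosolic genes in the promoter table (68.9%) have a tract.

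Values below are the deposited bead signal of each array (linear, before normalization), given with the log2 difference, drug-selected minus parental, after background correction and quantile normalization. The deposited signals ran higher on the drug-selected array, with a median of 63.1 over all probes against 52.5 on the parental array, so a gene with like signals on both arrays has a difference below 0. Higher and lower are used for a fold above 2 or under 0.5 only. Where a gene had several probes, its brightest detected probe, by the mean of both arrays, stood for it. As the only measure of spread, probes of the same gene scattered around their gene's mean difference with an SD of 0.305 over 2892 genes, which covers differences between probes and not between cultures.

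Most ribosomal protein genes of both kinds had a small difference above 0. Of the 71 cytosolic genes, 63 (88.7%) were above 0, against 49.6% of all detected genes, and their median difference was 0.39, a fold of 1.31, against a median of -0.0034 over all genes. Of the 75 mitochondrial genes, 61 (81.3%) were above 0, with a median of 0.30, a fold of 1.23. The differences ran from -0.69 to 1.49 in the cytosolic and from -0.39 to 1.03 in the mitochondrial class. The class medians were 0.09 apart. The spread between probes of a gene does not measure that of a class median, and a difference between the classes was not tested.

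Few members passed 2-fold. Among cytosolic genes 4 were higher and 0 lower in drug-selected cells, and among mitochondrial genes 2 were higher and 0 lower, while 7.12% of all detected genes were higher and 5.84% lower. The share of members past 2-fold was thus no larger than that of all genes. At 1.5-fold, 19 cytosolic and 16 mitochondrial genes were above, against 15.4% of all genes, and 2 and 0 were below, against 15.9%. With RPL10L, detected on 1 array, at its bound, 1 cytosolic gene was below.

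**Figure D1:**
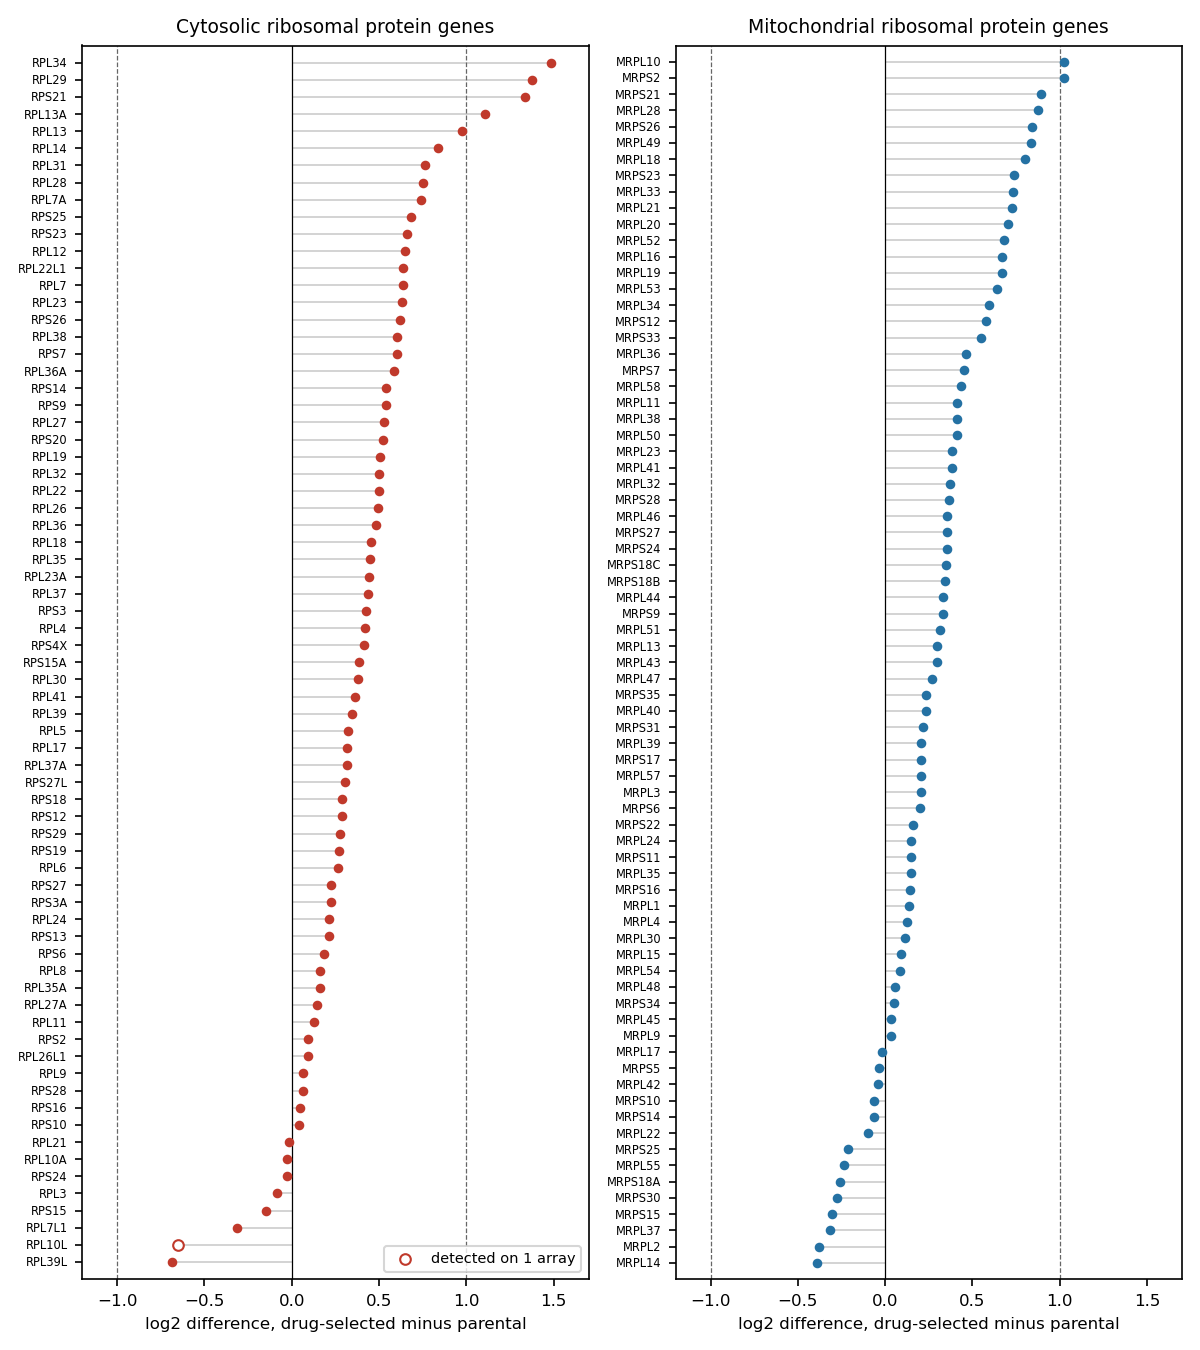
Log2 difference (drug-selected minus parental, 1 array each) of every detected cytosolic (left, 71 genes) and mitochondrial (right, 75 genes) ribosomal protein gene in order of size, with dashed lines at 2-fold and an open circle for the gene detected on 1 array. Most genes of both classes lie between 0 and 1, with RPL34 at 1.49 and RPL39L at -0.69 at the ends of the cytosolic class.

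RPL34, a protein of the large subunit, had the largest difference among the members. Its signal was 1057 in drug-selected and 300.4 in parental cells, a difference of 1.49 or 2.80-fold, and its other probe gave 458 and 179, a difference of 1.06 (gene at chr4:108620576-108630484). Both probes were thus higher in drug-selected cells.

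RPL29, a large-subunit protein also known as a heparin and heparan sulfate binding protein of the cell surface, had dim probes. Its signals were 167 in drug-selected and 67.6 in parental cells on one probe and 136 and 61.8 on the other, with differences of 1.38 and 1.25 (chr3:51993522-51995895). The parental signals lay close to that array's median of 52.5, and its fold of 2.60 was under 2 in the authors' normalized values, where the difference was 0.94.

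RPS21, a protein of the small subunit, had a single probe. Its signal was 985 in drug-selected and 309.8 in parental cells, a difference of 1.34 or 2.52-fold (chr20:62387103-62388520). RPL13A, a large-subunit protein that in human myeloid cells also leaves the ribosome to silence translation of inflammatory messages, gave 7571 in drug-selected and 2723 in parental cells on its single probe, a difference of 1.11 or 2.15-fold (chr19:49487608-49492308). It was the only gene among the 4 with a mean log2 signal over 12.

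RPL13, another large-subunit protein, came next and stayed under 2-fold, with 1930.4 in drug-selected and 750.0 in parental cells and a difference of 0.98. Outside the rule for named genes and picked for their known roles after the values were seen, RPL5 and RPL11, which bind MDM2 together with 5S RNA when ribosome assembly is disturbed, had differences of 0.32 and 0.13, and the other probe of RPL11 gave 0.47. RPS6, the substrate of the S6 kinases, had 0.19 and 0.04 on its probes. These values lie inside the range of the class.

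Most genes of both the large and the small cytosolic subunit were above 0. The 45 detected RPL genes had a median of 0.44 and 39 were above 0, and the 26 RPS genes had a median of 0.29 and 24 were above 0. A difference between the subunits was not tested. At the low end stood RPS15, near the decoding site of the small subunit, with 12198 in drug-selected and 9519 in parental cells (-0.15), and RPL3, a large-subunit protein near the peptidyl transferase centre, with 13313 and 9982 (-0.09). Their other probes of mean log2 signal over 11 differed the other way, by 0.32 for RPS15 and 0.47 for RPL3, so neither gene has a direction that all its probes share.

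MRPL10, a protein at the base of the stalk of the mitochondrial large subunit, had 628 in drug-selected and 247 in parental cells, a difference of 1.03 or 2.04-fold (chr17:47823272-47831541). Its other probe, detected on the drug-selected array only, gave 83.2 and 55.9 and a bound of 0.47. MRPS2, a protein of the mitochondrial small subunit, had 343 in drug-selected and 140.3 in parental cells, a difference of 1.02 or 2.03-fold (chr9:135499965-135504673). Both lie just past 2-fold, and in the authors' normalized values both were under it, at 0.97 and 0.91.

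The mitochondrial genes next in order were MRPS21 at 0.89, MRPL28 at 0.88 and MRPS26 at 0.84. MRPS21 had 1849 in drug-selected and 764 in parental cells on the representing probe, and 519 and 284 on the other, which differed by 0.51. MRPS26 had 1016 and 439 on its single probe.

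At the other end, MRPL14 had 446 in drug-selected and 433 in parental cells (-0.39), and MRPL2 had 296 and 278 (-0.38). MRPL37 had 1627 and 1509 (-0.32), MRPS15 had 821 and 756 (-0.30) and MRPS30 had 1996 and 1806 (-0.28). None of these passed 2-fold. Of the 3 genes that share the name MRPS18, MRPS18A had a difference of -0.26, MRPS18B 0.35 and MRPS18C 0.35. Split by name, the 47 MRPL genes had a median of 0.30 and the 28 MRPS genes one of 0.23. The letter in a name was not checked against the subunit that holds the protein.

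On the deposited signal without any normalization, 69 of 71 cytosolic and 75 of 75 mitochondrial genes had the larger value on the drug-selected array, and so did 79.9% of all detected genes. The cytosolic genes together took 4.12% of the summed signal of their array in drug-selected cells and 3.28% in parental cells. The mitochondrial genes took 0.518% in drug-selected and 0.417% in parental cells. In the authors' normalized values 3 cytosolic genes (RPL34, RPS21 and RPL13A) and 0 mitochondrial genes were higher, against 5.34% of all genes, and 0 of either class were lower, against 4.09%.

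**Figure D2:**
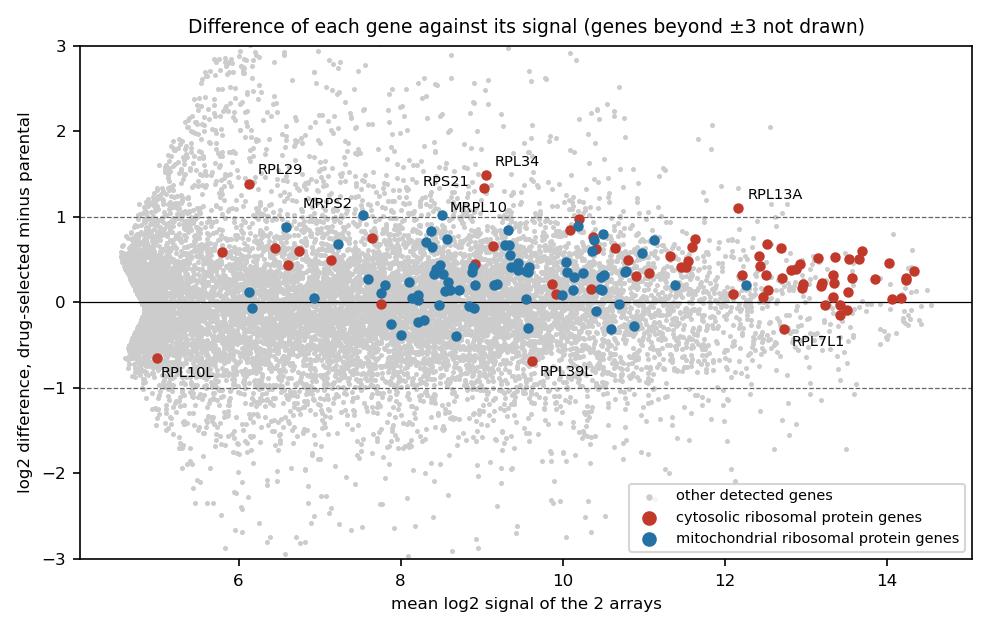
Log2 difference (drug-selected minus parental) of each detected gene against its mean log2 signal over the 2 arrays, with cytosolic ribosomal protein genes in red, mitochondrial ones in blue and all other genes in grey, and dashed lines at 2-fold. The cytosolic genes with a mean log2 signal over 12 have a median of 0.28, while the other genes at that signal have a median of -0.10.

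The cytosolic members did not follow other genes of like signal. Of the 358 genes with a mean log2 signal over 12, 40 were cytosolic members, with a median difference of 0.28 and 35 above 0. The 317 genes at that signal that belong to neither class had a median of -0.10, and 40.1% of them were above 0. Cytosolic members at or under a mean log2 signal of 12 had a median of 0.54, with 28 of 31 above 0. Over the 71 cytosolic genes the difference and the mean log2 signal had a rank correlation of -0.385, and over the 75 mitochondrial genes of 0.104. These are descriptions across genes of the same arrays, and genes are not independent replicates.

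The same trend with signal showed within genes. In 12 cytosolic genes with probes at least 1 apart in mean log2 signal and all over 7, the dimmer probe had the larger difference in 9, by a median of 0.44. Among mitochondrial genes this held for 6 of 13 (46.2%), and among other genes for 364 of 721 (50.5%). Restricted to genes whose brightest probe was over 12, it held for 8 of 9 cytosolic genes and 53 of 89 other genes (59.6%). The part of signal compression at the bright end in the size of the cytosolic differences was not tested.

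RPL6, a large-subunit protein, is an example. Its brightest probe had 23596 in drug-selected and 15452 in parental cells (0.27), the next 11355 and 5727 (0.60), and the dimmest 645 and 239 (1.11). RPS29, a zinc-binding small-subunit protein, had differences of 0.28, 0.43, 0.59 and 1.02 on probes of falling signal, the last with 485 in drug-selected and 193 in parental cells. RPS15A, also of the small subunit, had 0.39, 0.27 and 1.05, the last with 933 in drug-selected and 356 in parental cells. Each of these genes passed 2-fold on its dimmest probe alone.

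Counted by probe, 10 of 114 detected cytosolic probes and 2 of 102 mitochondrial probes were higher, against 5.84% of all detected probes, and 0 of either class were lower, against 5.07%. Probes of the same gene had differences of the same sign in 23 of 31 cytosolic genes (74.2%) and 20 of 23 mitochondrial genes (87.0%), against 77.1% of the 2892 genes of the series with several probes that both arrays detected. RPL32 of the large subunit was the only member whose probes lay more than 1 apart. Its brightest probe had a difference of 0.50, and its dim probes had 0.39 (129.95 in drug-selected and 82.1 in parental cells) and -0.60 (95.7 and 95.9), with a further probe detected on the drug-selected array only at a bound of 1.10.

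**Figure D3:**
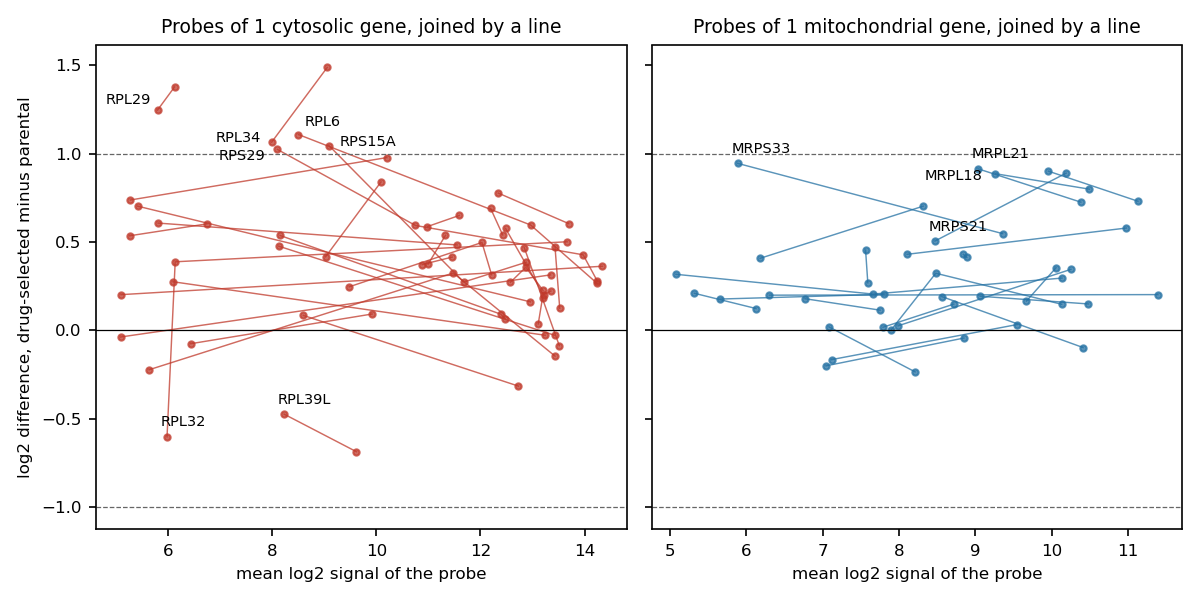
Log2 difference (drug-selected minus parental) of every probe detected on both arrays against its mean log2 signal, for cytosolic (left, 31 genes) and mitochondrial (right, 23 genes) members with several such probes, with a line joining the probes of a gene and dashed lines at 2-fold. RPL6 and RPS29 run down to the right, and RPS15A falls and then rises slightly at its brightest probe. The dimmest probes of RPL6, RPS15A and RPS29 have 1.11, 1.05 and 1.02.

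Many cytosolic members have processed pseudogenes, copies in the genome whose sequence can resemble the probe's. RefSeq names 1785 pseudogenes after the 73 cytosolic genes, with a median of 16 and up to 137 for RPL21, and 100 after the mitochondrial genes, with a median of 1. RPL21 itself had 285 in drug-selected and 214 in parental cells, a difference of -0.01. The rank correlation of the number of pseudogenes with the difference was 0.144 over the 71 cytosolic and -0.205 over the 75 mitochondrial genes. Which probes bind such copies was not tested, so the level of a gene with many copies is uncertain.

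The paralogues, second copies of a ribosomal protein gene, had differences on both sides of 0. The 6 detected paralogues named by the rule had a median of -0.11, with 3 above 0. The sign of this median rests in part on RPL10L, which was near background and detected on the parental array only. The 65 other cytosolic genes had a median of 0.42, with 60 above 0. RPL39L, the testis-rich copy of the exit tunnel protein RPL39, had 744 in drug-selected and 882 in parental cells (-0.69), and 331 and 334 on its other probe (-0.47). RPL39 had 2798 in drug-selected and 1663 in parental cells (0.34). The paralogue's difference was thus 1.03 below its partner's.

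RPL7L1, known for a role in large-subunit assembly in the nucleolus, had 6921 in drug-selected and 6656 in parental cells (-0.32), against 2326 and 1138 (0.64) for RPL7. Its difference was 0.95 below that of RPL7 by the representing probe, while its dimmer probe, with 494 and 354, gave 0.08. RPL26L1 had 1183 in drug-selected and 836 in parental cells (0.09), against 229 and 130.5 for RPL26 (0.49). RPL10L, the autosomal copy that in mouse stands in for X-linked RPL10 during male meiosis, was detected on the parental array only, with 62.0 in drug-selected and 64.7 in parental cells and a bound of -0.52. It was the only member whose representing probe was detected on 1 array alone.

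In the remaining pairs the differences were alike. RPL22L1 had 163 in drug-selected and 89.1 in parental cells (0.64), against 2477 and 1329.6 for RPL22 (0.50). RPS27L, a known target of p53, had 2476 in drug-selected and 1505 in parental cells (0.31), against 11835 and 7526 for RPS27 (0.23). RPL36AL, which the symbol rule leaves out, differed by 0.63, and the dim RPL36A, with 116 in drug-selected and 69.1 in parental cells, by 0.59. The members of these 3 pairs lay within 0.14 of each other, under the spread between probes of a gene. Over the alternatives of processing, however, RPL36A ranged from 0.366 to 0.833 and RPL22L1 from 0.461 to 0.787, relative to all genes. RPL3L, the form of striated muscle, was detected on neither array, and neither was RPL10, whose probes stood at 48.4 and 47.7 in drug-selected and 45.6 and 38.0 in parental cells. RPL10 codes for an essential protein of the large subunit, and its level cannot be read from these probes.

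**Figure D4:**
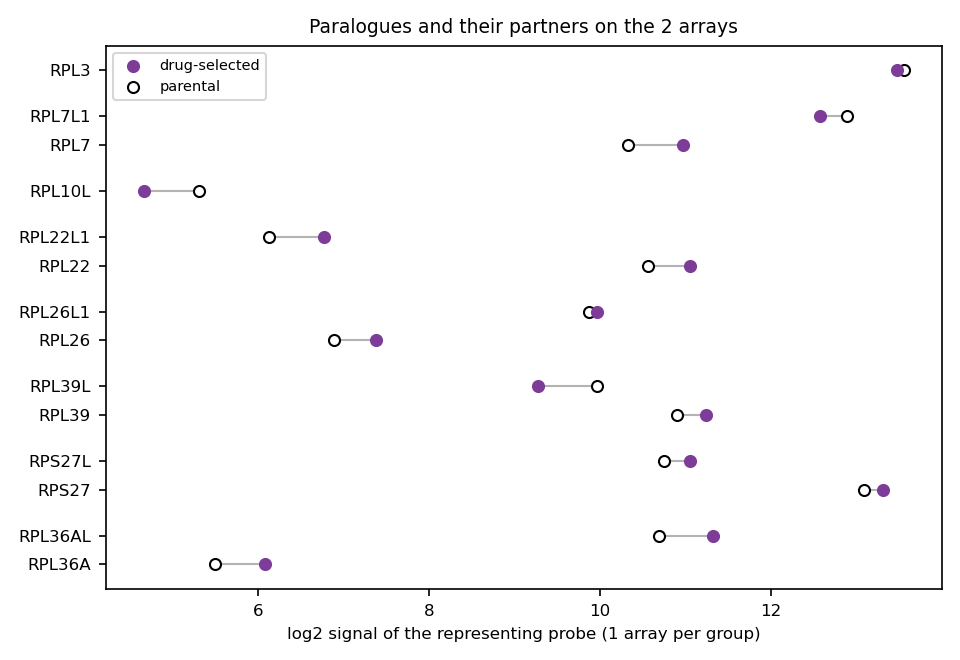
Log2 signal (after background correction and quantile normalization) of each paralogue and its partner, with filled points for drug-selected and open points for parental cells (1 array each). RPL7L1, RPL10L, RPL39L and, by 0.09, RPL3 have the drug-selected point on the left, the other genes drawn have it on the right, and RPL3L and RPL10 are not drawn because neither array detected them.

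Differences of the members followed those of the genes around them. For this comparison, chosen after the values were seen, each member was set against its neighbours' median difference, where at least 10 were detected. Neighbours were genes of neither class that start within 2 Mb of the member. Ribosomal protein genes outside the symbol rule can be among them. Over 140 members the rank correlation with the neighbours' median was 0.490, and it was 0.431 over 68 cytosolic and 0.596 over 72 mitochondrial genes. Genes that belong to neither class had 0.248 (n = 11065) by the same measure. Their differences spread more widely, with an SD of 0.83, against 0.38 for cytosolic and 0.34 for mitochondrial genes. They were not matched to the members by spread or signal, so the correlations cannot be compared in strength. Members close to each other share neighbours, so these points are not independent, and DNA copy number was not measured in the data used here.

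RPL39L, on the long arm of chromosome 3 (chr3:187120948-187139496), had 19 detected neighbours with a median of -0.72, and 1 of them was above 0. On chromosome 6, RPL7L1 (chr6:42879616-42889900), MRPL2 (chr6:43054029-43059863), MRPS18A (chr6:43671202-43687791) and MRPL14 (chr6:44113451-44127452) lie close together. They had differences of -0.32, -0.38, -0.26 and -0.39, and the medians of their neighbours were -0.37, -0.35, -0.37 and -0.40. Other members there lay well above low neighbours, MRPS10 at -0.06 with neighbours at -0.35, RPL10A at -0.03 with -0.38, MRPS18B at 0.35 with -0.26 and RPS18 at 0.29 with -0.26. Of the 11 detected members on chromosome 6, 5 were above 0, and their median was -0.03, while the other genes of that chromosome had a median of -0.18. MRPL18, on the same chromosome at chr6:159789812-159798429, differed by 0.80, with a median of 0.02 among its neighbours.

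At the upper end, the 6 genes that passed 2-fold all had neighbours with a median above 0. It was 0.48 around MRPS2, 0.36 around MRPL10, 0.26 around RPL29, 0.25 around RPL13A, 0.22 around RPL34 and 0.19 around RPS21. The members next in size did not all share this, since the neighbours' median was -0.07 around RPL13 (0.98), -0.05 around RPL14 (0.84) and -0.17 around MRPS26 (0.84). All 12 detected members on chromosome 17 were above 0, with a median of 0.50, and the other genes of chromosome 17 had a median of 0.13. Members whose neighbours had a median below 0 (63 genes) still had a median of 0.20, and those whose neighbours had a median above 0 (77 genes) had one of 0.45. The positive difference of the class was thus present in both kinds of surroundings and smaller where the neighbours were below 0.

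**Figure D5:**
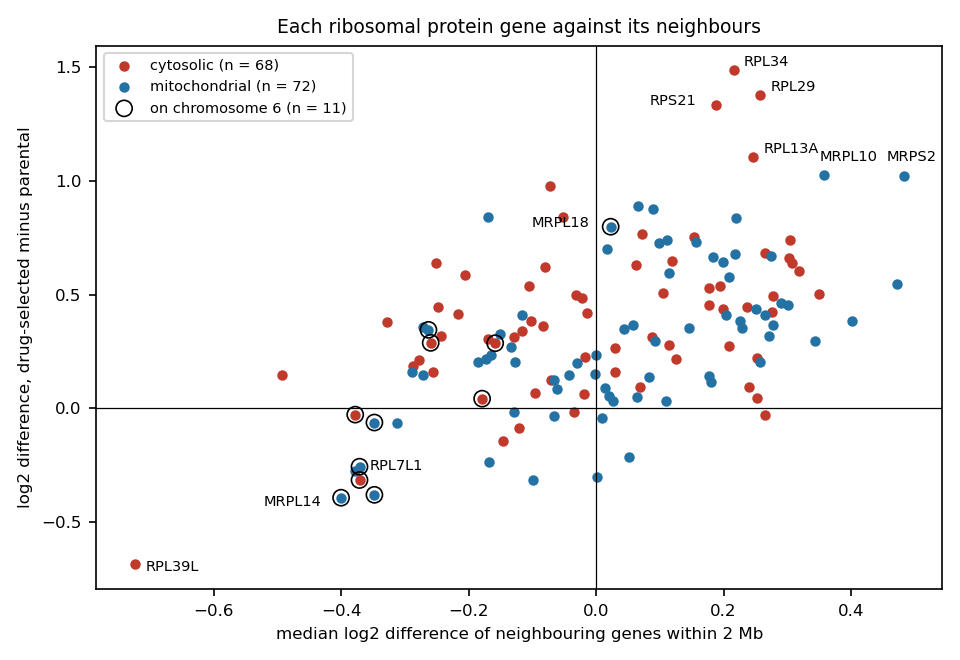
Log2 difference (drug-selected minus parental) of each member against the median of the same difference over genes of neither class that start within 2 Mb. Cytosolic members are in red (n = 68), mitochondrial members in blue (n = 72), and rings mark the 11 members on chromosome 6. The cloud rises to the right (rank correlation 0.490), with RPL39L at the lower left and MRPS2 and MRPL10 at the upper right.

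TOP tracts were found at a listed start of 42 of the 61 cytosolic genes in the RefSeq promoter table (68.9%), 6 of 67 mitochondrial genes (8.96%) and 6.24% of 15842 protein-coding genes. With a shift of up to 3 bases from the listed start allowed, the shares were 78.7%, 13.4% and 17.7%. The call therefore depends on the start that RefSeq lists. By the listed start, the 41 detected cytosolic genes with a tract had a median difference of 0.45. The 19 without one had 0.28, or 0.31 for the 15 that are no paralogues. With the shift allowed, the 47 cytosolic genes with a tract had 0.45 and the 13 without one had 0.28. Among paralogues RPL22L1 (0.64) has a tract and RPL7L1, RPL26L1, RPL10L and RPS27L (0.31) have none. The 719 genes of neither class with a tract had a median of 0.00, and the 9392 without one had -0.01. Whether cytosolic genes with and without a tract differ was not tested.

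Letters of other promoter motifs were searched on both strands from 250 bases before to 50 after each listed start. The ETS motif CCGGAAGT was in 16.4% of cytosolic, 16.4% of mitochondrial and 6.97% of all protein-coding promoters. The YY1 motif AAGATGGCG was in 9.84% of cytosolic, 19.4% of mitochondrial and 3.21% of all protein-coding promoters, and the NRF1 motif GCGCATGCG was in 1.64%, 4.48% and 3.11%. The E-box CACGTG, the site of MYC and its partners, was in 8.20%, 13.4% and 10.9%, and TATAAA was in 9.84%, 4.48% and 12.4%. A match of letters is a description and not a binding site.

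Genes that act with ribosomes were read from lists chosen by function. The cytosolic ribosomal proteins that the symbol rule leaves out, RPLP1, RPLP2, FAU and RPL36AL, had a median of 0.40, and the mitochondrial ones, DAP3, PTCD3, CHCHD1 and GADD45GIP1, had a median of 0.04. None of these genes passed 2-fold. The 66 detected genes of ribosome biogenesis had a median of 0.24, with 50 above 0. Past 2-fold, 4 were higher and 0 lower, against 7.12% and 5.84% of all detected genes. The 4 were POLR1B, a subunit of RNA polymerase I, with 252 in drug-selected and 85.3 in parental cells (2.83-fold), LYAR, a nucleolar factor, with 2563 and 724 (2.72-fold), NOP16 of large-subunit assembly with 678 and 209 (2.65-fold), and RRP12 of subunit export with 864 and 331 (2.06-fold).

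Of 42 cytosolic translation factors 0 were higher and 0 lower, against 7.12% and 5.84% of all detected genes. Their median was 0.16. EEF1A1, the elongation factor that brings tRNA to the ribosome, had 26345 in drug-selected and 21919 in parental cells (-0.03). Of 28 mitochondrial translation and assembly factors 0 were higher and 0 lower, against the same shares. Their median was -0.04, with 13 above 0, so the shift of the MRPL and MRPS genes was not seen in it. A difference between these lists was not tested.

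Of 21 detected regulators of ribosomal protein production, 0 were higher and 2 lower, against 7.12% and 5.84% of all detected genes. The list had a median of -0.0025, with 10 above 0. SESN2, a stress-induced inhibitor of mTORC1, had 67.0 in drug-selected and 159 in parental cells (-2.41), where the drug-selected log2 signal of 4.83 lay next to the lowest detected one on that array (4.80), so the size of the difference is uncertain, and MXI1, a repressor that competes with MYC for MAX, had 115 and 235 (-1.83). MYC itself, which drives many genes of ribosome production, had 3762 in drug-selected and 3847 in parental cells (-0.48), and MTOR had 795 and 811 (-0.45). At 1.5-fold, 4 genes of the list were above, against 15.4% of all detected genes, and 3 were below, against 15.9%. The 4 above were AKT1 (0.70), MLST8 (0.68), RPS6KB1 (0.66) and RHEB (0.59), which act in the mTOR pathway. Other genes of that pathway lay on both sides of 0, such as RPS6KB2 (0.54) and RPTOR (-0.41). LARP1 and MYCN were detected on neither array.

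Other cell types and growth were followed by marker lists, to be read against 7.12% of all detected genes higher and 5.84% lower. Of 10 melanocyte markers 9 were detected, 0 higher and 5 lower. Among the lower were TYR, with 69.0 in drug-selected and 7821 in parental cells, and PMEL, with 2233 and 23447. The drug-selected log2 signal of TYR, 4.90, lay next to the lowest detected one on that array (4.80), so the size of its difference is uncertain. Above 0 were 3 of the 9, CSPG4 (0.38), MCAM (0.51) and PAX3 (0.03), the last detected on the drug-selected array only. The summed signal of the list was 7218 in drug-selected and 40469 in parental cells. SOX10, which marks the lineage, was detected on both arrays with 1684 in drug-selected and 2356 in parental cells. Of 10 fibroblast markers 9 were detected, 6 higher and 2 lower, with sums of 2990 and 3616. Of the higher ones COL3A1, PDGFRB and THY1 were detected on the drug-selected array only, with bounds of 1.21, 2.73 and 1.37. Of 7 leukocyte markers 4 were detected, with sums of 3299 in drug-selected and 1226 in parental cells. The myeloid CD14 was higher, with 627 in drug-selected and 72.8 in parental cells, LYZ passed 2-fold by its values (102 and 54.6) but not by its bound of 0.92, CD68 differed by 0.89, and the defining PTPRC, CD3D and CD3E were not detected. Of 7 epithelial markers 3 were detected, 1 higher and 0 lower, with sums of 409 and 158. The higher one, KRT8 (274 and 55.1), was detected on the drug-selected array only, at a bound of 2.80, and CDH1 was not detected. Of 7 endothelial markers 3 were detected, 2 higher and 0 lower, with sums of 435 and 177. The higher ones were TEK (233 and 51.3), detected on the drug-selected array only at a bound of 2.52, and PECAM1 (121 and 56.9). CDH5 and KDR were not detected. The part of these markers in the ribosomal differences was not tested. Of 23 proliferation markers 2 were higher, MCM2 and BIRC5, and 0 lower, against 7.12% and 5.84% of all detected genes. The proliferation list had a median of 0.18, with 15 above 0. Of 11 housekeeping genes outside translation 0 passed 2-fold, with a median of 0.22. The part of proliferation in the ribosomal differences was not tested.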

How the data were processed

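RNA of 1 drug-selected and 1 parental A2058 sample was analysed. The authors deposited the bead signal of each probe, a linear intensity before normalization, together with a detection p-value for each probe against control beads. The methods state that background was subtracted for each bead, and the lowest signals in the table were 30.5 for drug-selected and 25.7 for parental cells, none being at or below 0. A second deposited table holds the authors' normalized intensity, whose medians were 58.12 for drug-selected and 58.10 for parental cells. Which normalization this was is not stated by the sources read. The methods give a fold of suspended over adherent cells, names that the labels do not use, so folds here are drug-selected over parental. Intensities were corrected with limma 3.58.1 in R 4.3.3 (normexp by detection p, offset 16), then quantile normalized, and log2 was taken. Probes were kept where either array gave a detection p-value below 0.05, 45.6% of probes being detected in drug-selected and 42.5% in parental cells. For a probe detected on 1 array, a bound was set against the lowest detected log2 signal of the other, 4.80 for drug-selected and 4.89 for parental cells. Gene symbols came from the platform's annotation (1 symbol for 30113 probes, several for 8, none for 17202), and all 148 members matched RefSeq. Promoter windows came from RefSeq (GRCh38.p14), and a gene with several listed starts had a motif when any start had it. Correlations are Spearman's. Counts, motifs and figures were made with Python 3.11.15 (matplotlib 3.10.9, scipy 1.17.1, pandas 2.3.3 and numpy 2.4.6), and the scripts were tested on simulated data. Named genes are members past 2-fold on any probe, the 5 highest and 5 lowest of each class, members detected on 1 array or neither, paralogues with their partners, and members with probes over 1 apart, with up to 3 genes past 2-fold in each direction of other lists. The fourth biogenesis gene, the other factors and the neighbours of the members were added after their values were seen. Members and lists were chosen with earlier results of these data known. One mitochondrial ribosomal protein gene is not reported here.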

Additional observations from a re-analysis of the deposited data

How the results depend on the processing

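No paired analysis was possible because each group had 1 array and the labels carry no replicate numbers, and for the same reason no array could be left out. The median of the cytosolic genes relative to all genes was 0.389, between 0.356 and 0.507 over the alternatives, that of the mitochondrial genes was 0.299 (0.264 to 0.339) and their difference was 0.090 (0.070 to 0.188), so all kept their direction. Counts past 2-fold moved more. Cytosolic genes higher were 4, and became 18 without normalization between arrays, 9 with scaling to the median, 19 at 1.5-fold and 0 at 3-fold. Mitochondrial genes higher were 2, and became 16, 9, 16 and 0 under the same alternatives, 0 with an offset of 50, without normexp and in the authors' normalized values, and 1 with a gene given by its probes' median. Cytosolic genes lower were 0, and became 1 with an offset of 0 (RPL10L) and 2 at 1.5-fold (RPL39L and RPL10L). The scaling sets these counts in part, since the median of all genes stood at 0.371 without normalization and at 0.235 with scaling to the median, where 84.2% and 76.4% of genes past 2-fold were higher, against 55.0% in the values reported and 66.8% at 3-fold. Members above the median of all genes numbered 63 to 67 of 71 cytosolic and 61 to 63 of 75 mitochondrial genes over these scalings. Of 252 comparisons of named members, 246 moved by less than 0.305, the spread between probes, and the other 6 were of the dim RPL29 (0.926 to 1.824) and RPL10L (-1.344 to -0.312). The sign of RPL3 changed (-0.083 to 0.045). The rank correlation with neighbours ranged from 0.410 (no detection filter) to 0.530 (median over probes), with 0.424 without chromosome 6. That correlation and its alternatives, and the use of probes of mean log2 signal from 7 to 12, were chosen after seeing the data. Signals near background limit what can be said of RPL29, RPL10L, RPL36A, RPL22L1, SESN2, TYR and the dim probes of RPL32.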
